A study of Homo sapiens with 24 samples.

Results

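The PIM kinases are a family of 3 serine/threonine kinases, encoded by PIM1, PIM2 and PIM3, and their transcripts were followed in U2932 cells, which grow from a human lymphoma of the diffuse large B-cell type, after reagents directed at MYC. The members were taken by gene symbol, and all 3 were found in both deposited tables, as 3 of 61541 genes at 48 h and 3 of 19836 genes at 72 h. They were chosen by measured values, since PIM1 was low with PNA2 and PIM2 separated PNA2 from siRNA at 48 h. The values of PIM1 in PNA2 and control cells, and those of PIM2 at 48 h, are therefore given as descriptions with no test, and PIM3 in the PNA2 comparisons at 48 h is treated in the same way. PIM1 and PIM3 in siRNA cells, and PIM2 and PIM3 at 72 h, were tested.

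The 24 libraries formed 5 groups. At 48 h these were 4 libraries of cells given PNA2, which is a nucleic acid analogue of the gamma peptide type, at a labelled dose of 8 mM whose unit is doubtful, 4 libraries of cells given MYC siRNA at 500 nM by electroporation, and 6 libraries of PBS control cells. At 72 h there were 5 PNA2 libraries, with the same labelled dose, and 5 PBS control libraries, and one label text of these names 48 h as well, against their titles. No control cells are described as electroporated, so the siRNA reagent and its delivery cannot be told apart, and the line is entered under other numbers for the siRNA libraries, whose treatment text names U2932. The labels do not say that replicates came from separate cultures, so p-values measure the spread between these libraries, which may be technical.

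PIM kinases lack a regulatory domain and are active once translated, so their activity follows their transcript and protein levels closely. Transcription of PIM1 and PIM2 is induced through cytokine receptors, JAK kinases and STAT factors, and by NF-kB in B cells. The kinases phosphorylate regulators of survival, translation and the cell cycle, among them BAD, the proline-rich AKT substrate AKT1S1 and the cell cycle inhibitors CDKN1A and CDKN1B. They also cooperate with MYC in lymphoma of mice, and PIM1 is a known site of aberrant somatic hypermutation in diffuse large B-cell lymphoma.

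PIM1 (ENSG00000137193) lies on chromosome 6, from 37170203 to 37175426 on the forward strand of GRCh38. PIM2 (ENSG00000102096) lies on chromosome X, from 48913182 to 48919024 on the reverse strand. PIM3 (ENSG00000198355) lies on chromosome 22, from 49960513 to 49964080 on the forward strand, and the microRNA gene MIR6821 lies within it on the same strand. No annotated gene overlaps any of the 3 on the opposite strand. The promoters are printed because the genes gave different patterns across the treatments. Each runs from 250 bases before to 50 bases after the RefSeq gene start (GRCh38.p14), written 5′ to 3′ on the strand of the gene, and capitals mark matches to the octamer motif ATGCAAAT, which is bound by OCT factors and is common in promoters active in B cells. The gene positions above are those of GENCODE, whose starts differ from RefSeq for PIM1 and PIM3. The PIM1 window ends before the GENCODE start, and the PIM3 window lies within the GENCODE gene.
PIM1 promoter, chr6:37169902-37170201, forward strand: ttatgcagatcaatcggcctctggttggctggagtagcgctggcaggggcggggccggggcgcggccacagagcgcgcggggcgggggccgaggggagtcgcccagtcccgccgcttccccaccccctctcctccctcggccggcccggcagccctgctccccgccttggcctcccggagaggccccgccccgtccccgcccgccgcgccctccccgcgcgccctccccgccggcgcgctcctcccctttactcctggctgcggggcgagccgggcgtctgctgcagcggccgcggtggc
PIM2 promoter, chrX:48918975-48919274, reverse strand: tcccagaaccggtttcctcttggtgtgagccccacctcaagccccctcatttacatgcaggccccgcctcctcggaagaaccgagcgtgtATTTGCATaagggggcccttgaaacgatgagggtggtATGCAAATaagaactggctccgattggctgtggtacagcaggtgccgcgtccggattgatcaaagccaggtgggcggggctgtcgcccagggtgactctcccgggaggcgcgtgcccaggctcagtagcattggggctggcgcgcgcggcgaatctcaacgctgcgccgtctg
PIM3 promoter, chr22:49960522-49960821, forward strand: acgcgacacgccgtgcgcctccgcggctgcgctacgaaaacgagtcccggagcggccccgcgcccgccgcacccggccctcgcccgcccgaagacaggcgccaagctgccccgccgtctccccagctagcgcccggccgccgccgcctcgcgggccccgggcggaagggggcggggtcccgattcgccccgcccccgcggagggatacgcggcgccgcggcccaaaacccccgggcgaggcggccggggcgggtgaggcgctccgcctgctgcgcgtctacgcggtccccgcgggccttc

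The PIM2 promoter differed from the other two in base composition. GC content was 79.7% for PIM1 with 39 CpG sites, 62.3% for PIM2 with 23 CpG sites and 81.3% for PIM3 with 56 CpG sites, and the median of all 35116 promoters of this length was 58.7% GC with 14 CpG sites. PIM2 held 2 octamer matches, at 160 bases before the start on the strand opposite to the gene (read here as ATTTGCAT) and at 123 bases before it on the strand of the gene. No match lay in the PIM1 or PIM3 window, and 1.77% of all promoters held the octamer. Neither CACGTG, the E-box core bound by MYC (7.26% of all promoters), nor TTCNNNGAA, a STAT motif (7.66%), nor the NF-kB consensus (11.3%) occurred in any of the 3 windows on either strand. The octamer was added to the search after the sequences were read. These matches describe letters only.

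The deposited values of a library summed to between 14881651 and 16033819 in PNA2, 12625943 and 16167951 in siRNA and 11121494 and 14460806 in control libraries at 48 h. At 72 h the recovered reads came to between 11253704 and 13687016 with PNA2 and 8215064 and 13282795 in controls. The 48 h libraries fall into 2 batches, read from ties between low values. Batch A holds PNA2 1 and 2, all 4 siRNA libraries and controls 1, 2 and 4, and batch B holds PNA2 3 and 4, control 3 and the 2 unnumbered controls. MYC, the target of both reagents, had TMM-scaled values of 7198 to 8997 in PNA2, 3576 to 4159 in siRNA and 5348 to 7721 in control libraries. In siRNA libraries the log2 difference of MYC was -0.82 (SE 0.11, adjusted p = 0.000396, limma). In libraries labelled PNA2 the log2 difference of MYC was 0.24 (adjusted p = 0.114), with 0.007 within batch A and 0.47 within batch B. MYC was thus not lower in either batch, against the label of a knockdown. At 72 h MYC ranged from 459.9 to 2032 with PNA2 and from 826.4 to 2845 in controls (log2 difference -0.18, adjusted p = 0.794), and the sign turned to 0.24 without PNA2 replicate 3. PNA2 below stands for the libraries labelled PNA2. The B-lineage markers, 8 of 8 detected, summed to at least 53950 deposited units in every library. The 10 T and NK markers summed at 48 h to 304.7 to 486.2 in PNA2, 312.4 to 460.1 in siRNA and 112.3 to 332.4 in control libraries. Most of this came from TRAC, a T cell receptor gene, with means of 264 in PNA2, 254 in siRNA and 159 in controls, while CD3D, CD2 and GNLY were at 0 in every group. Of the 3 tested, CD8A, at means of 32.8 in PNA2, 13.9 in siRNA and 8.26 in controls, was called higher in PNA2 (log2 2.12) and siRNA (2.15), and CD247 was called lower in PNA2 (-0.86). With the batches aligned on their controls the CD8A differences were 1.28 and 1.12, and neither was called. Both CD8A calls were also lost without a batch term or without control replicate 2. At 72 h the list summed to 47.13 to 89.13 with PNA2 and 46.02 to 75.36 in controls. The stroma and epithelium list, with EPCAM its highest gene, summed at 48 h to 236.3 to 516.5 in PNA2, 259.0 to 368.6 in siRNA and 188.1 to 283.2 in controls, with 0 of 3 tested genes called. The myeloid and erythroid lists had no gene that could be tested at 48 h. The part of these markers in the PIM differences was not tested. In bulk RNA, fewer cells of a type and less RNA per cell cannot be told apart.

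All PIM transcripts were abundant in these cells. Per kb of exon, the mean TMM-scaled level at 48 h of PIM1 was 431 in PNA2, 743 in siRNA and 798 in control libraries. That of PIM2 was 999 in PNA2, 1716 in siRNA and 1266 in control libraries. That of PIM3 was 590 in PNA2, 537 in siRNA and 602 in control libraries. Among 13943 genes with a length at 48 h, the lowest of these levels, PIM1 in PNA2, lay above 89.5% of genes, and the highest, PIM2 in siRNA, lay above 98.2%. At 72 h the per kb level, on the authors' own scale, was 1088 with PNA2 and 1063 in controls for PIM1, 966 with PNA2 and 876 in controls for PIM2, and 609 with PNA2 and 506 in controls for PIM3. By this length PIM2 was the highest of the 3 in every group at 48 h, and PIM1 in both groups at 72 h. With the longest transcript as length PIM2 was higher than PIM1 with PNA2 at 72 h, with 40.9% against 39.0% of the summed level, and in controls PIM1 had 41.4% and PIM2 40.4%. The tables were normalized separately, and levels at the 2 times are not compared.

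PIM1 was lower in every PNA2 library than in any other library at 48 h. The 4 PNA2 replicates had TMM-scaled values of 1357, 1017, 1377 and 1380, the 4 siRNA replicates had 2131, 2161, 2264 and 2293, and the values ran from 2093 to 2470, with a median of 2432, in the 6 controls. The PNA2 libraries overlapped with neither other group, and PNA2 replicate 2 was the lowest. The means were 1283 ± 177 in PNA2 (SD, n = 4), 2212 ± 78.5 in siRNA (SD, n = 4) and 2375 ± 143 in controls (SD, n = 6).

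The fitted log2 difference of PIM1 between PNA2 and control was -0.90 (SE 0.08, 95% interval -1.06 to -0.73), or 0.537 of the control level. It was -0.99 within batch A and -0.81 within batch B, and -0.80 without PNA2 replicate 2. Of all 14136 genes tested, 1.44% had a difference as low or lower, 4.87% had PNA2 and control groups that did not overlap with PNA2 lower, and 8.04% were called lower (adjusted p under 0.05). Since the choice of PIM1 used this contrast, nothing is read from those shares. Against siRNA the difference was -0.86 (SE 0.09), and -0.72 without PNA2 replicate 2, beside 13.3% of genes whose groups did not overlap with PNA2 lower and 5.77% of genes with a difference as low.

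In siRNA cells, where this contrast did not choose PIM1, the gene did not pass the test. The contrast shares its controls with the one that chose PIM1, so the test is not independent of the choice. The log2 difference between siRNA and control was -0.04 (SE 0.09, 95% interval -0.23 to 0.15, adjusted p = 0.79, limma). The exact two-sided permutation test gave p = 0.0905 over all libraries and p = 0.4 within batch A, and the smallest values these designs allow are 0.00476 and 0.0286. The siRNA values lay inside the control range. The sign depended on scaling: without rescaling the difference was 0.19.

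**Figure D1:**
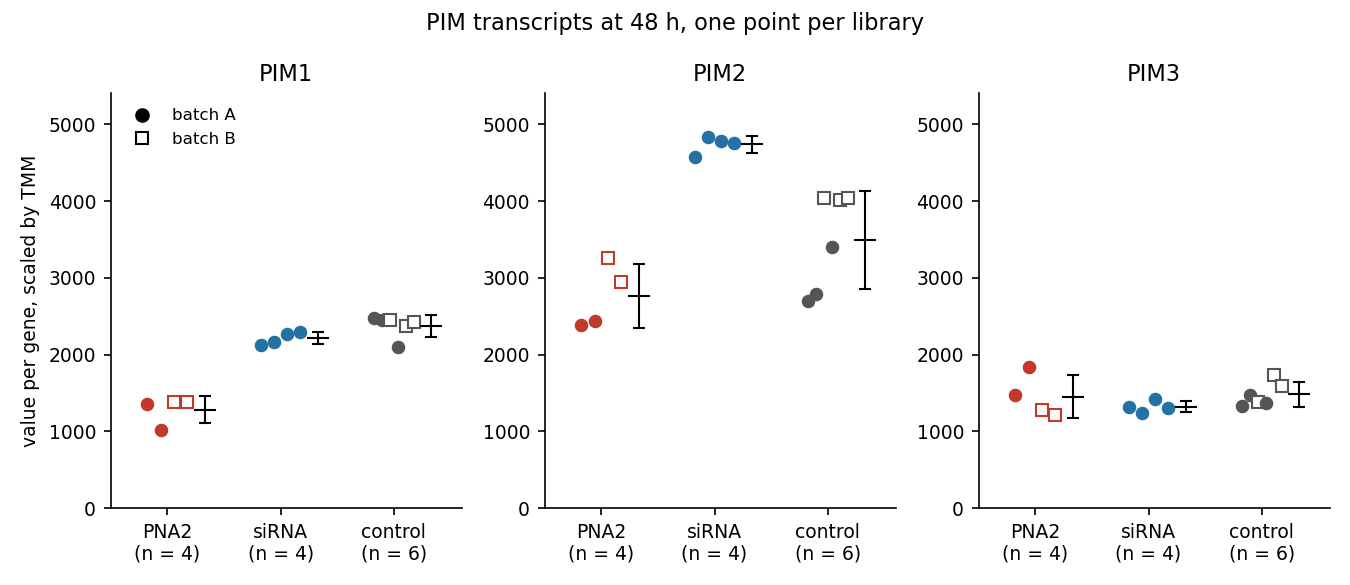
TMM-scaled values of PIM1, PIM2 and PIM3 at 48 h (vertical axis, value per gene) in PNA2, siRNA and control libraries (horizontal axis). Each point is a library, filled circles are batch A and open squares batch B, and the bar beside each group is the mean ± SD. The PIM1 values of PNA2, 1017 to 1380, lie below all others. The PIM2 values of siRNA, 4575 to 4833, lie above all others.

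PIM2 stood highest in siRNA and lowest in PNA2 libraries at 48 h. The 4 PNA2 replicates had TMM-scaled values of 2391, 2440, 3256 and 2951, the 4 siRNA replicates had 4575, 4833, 4782 and 4758, and the values ran from 2695 to 4042, with a median of 3706, in the 6 controls. All siRNA libraries lay above all controls, whereas the upper PNA2 libraries lay inside the control range. The means were 2760 ± 417 in PNA2 (SD, n = 4), 4737 ± 112 in siRNA (SD, n = 4) and 3495 ± 635 in controls (SD, n = 6).

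The spread of PIM2 in the controls followed the batches. Controls of batch A had 2695, 2787 and 3395, a mean of 2959 ± 380 (SD, n = 3), and controls of batch B had 4035, 4018 and 4042, a mean of 4032 ± 12.1 (SD, n = 3). The PNA2 libraries were split in the same direction, with 2391 and 2440 in batch A and 3256 and 2951 in batch B. The authors' adjustment left the mean deposited value of PIM2 nearly equal over all libraries of a batch, at 3717 in the 9 libraries of batch A and 3611 in the 5 of batch B. Batch B holds no siRNA library, and in batch A, which holds all 4, the siRNA values were high and the PNA2 and control values low. The part of the adjustment in this split was not tested.

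The fitted log2 difference of PIM2 between PNA2 and control was -0.33 (SE 0.07, 95% interval -0.48 to -0.19), with -0.28 within batch A and -0.38 within batch B. Without rescaling it was -0.13. Between siRNA and control it was 0.67 (SE 0.08, 95% interval 0.51 to 0.83), or 1.59 times the control level. That difference was 0.69 within batch A, 0.59 with the batches aligned on their controls and 0.46 without a batch term. Of all genes, 7.35% had a difference between siRNA and control as high or higher, 8.61% had groups that did not overlap with siRNA higher, and 8.72% were called higher. Between PNA2 and siRNA it was -1.0 (SE 0.08), or 0.50 of the siRNA level, and 4.26% of genes had a difference as low or lower. Within batch A it was -0.97, and without a batch term -0.79. Each pair of comparisons at 48 h shares a group, and the PIM1 differences of -0.90 and -0.86 rest on the same 4 PNA2 libraries, so the values of PIM1 and PIM2 are set side by side only.

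PIM3 showed no separation of the groups at 48 h. The 4 PNA2 replicates had TMM-scaled values of 1475, 1841, 1274 and 1219, the 4 siRNA replicates had 1316, 1244, 1419 and 1308, and the values ran from 1330 to 1740, with a median of 1429, in the 6 controls. PNA2 replicate 2 was the highest of all 48 h libraries and PNA2 replicate 4 the lowest. The log2 difference between PNA2 and control was -0.04 (SE 0.11), and it was 0.25 within batch A and -0.33 within batch B, so the batches gave opposite signs. Between PNA2 and siRNA it was 0.15 (SE 0.13). It became -0.04 with the batches aligned and -0.03 without PNA2 replicate 2.

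The siRNA comparison of PIM3 was tested and did not pass. The log2 difference between siRNA and control was -0.19 (SE 0.12, 95% interval -0.44 to 0.06, adjusted p = 0.294, limma). The exact two-sided permutation p, unadjusted and with no batch term, was 0.0905 over all libraries, for a plain difference of -0.16, and 0.286 within batch A. The limma difference was -0.07 within batch A and -0.03 with the batches aligned on their controls, and without rescaling the sign turned, to 0.05. Neither of the 2 PIM tests in siRNA cells was thus past the threshold, beside 17.2% of all genes called in either direction.

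**Figure D2:**
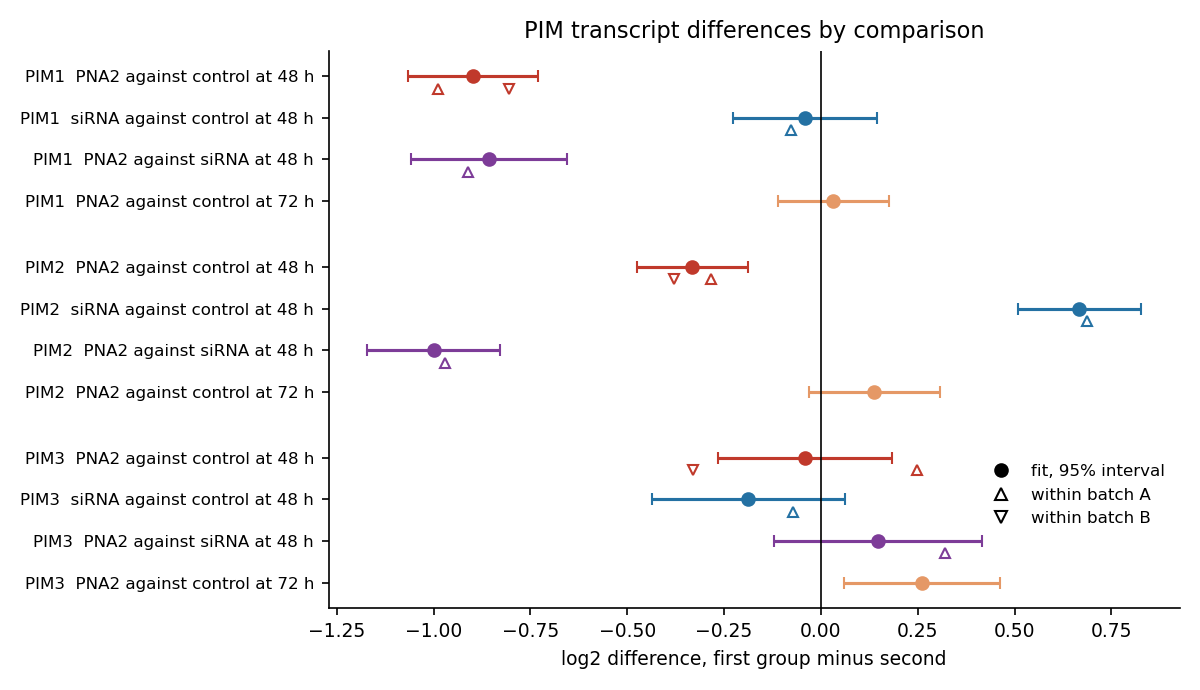
Log2 differences of PIM1, PIM2 and PIM3 (horizontal axis, the group named first minus the second) for the 4 comparisons (vertical axis). Filled points are fitted values with 95% intervals, and open triangles are the values within batch A (point up) or batch B (point down). PIM1 against control lies at -0.90 with PNA2 at 48 h and at 0.03 at 72 h. The batch values of PIM3 with PNA2 lie on either side of 0, at 0.25 and -0.33.

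At 72 h no PIM gene had a lower mean with PNA2 than in controls. The deposited normalized read count of PIM1 was 3510, 3480, 3193, 3012 and 3006 in PNA2 replicates 1 to 5, against 3212, 3179, 3184, 2937 and 3310 in control replicates 1 to 5. The groups overlapped, and the PNA2 libraries held the highest values. The means were 3240 ± 245 with PNA2 and 3164 ± 138 in controls (SD, n = 5 each), a log2 difference of 0.03 (SE 0.07, 95% interval -0.11 to 0.18). The difference of -0.90 at 48 h and that of 0.03 at 72 h come from separately made tables, and the difference between them was not tested.

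PIM2 had 2877, 2762, 2892, 2383 and 2424 normalized reads in PNA2 replicates 1 to 5, against 2507, 2456, 2606, 2218 and 2311 in control replicates 1 to 5. PNA2 replicates 1 to 3 lay above every control and replicates 4 and 5 among them. The log2 difference was 0.14 (SE 0.08, 95% interval -0.03 to 0.31), and it did not pass the test (adjusted p = 0.212, limma, and exact two-sided permutation p = 0.111).

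PIM3 had 1580, 1481, 1748, 1289 and 1391 normalized reads in PNA2 replicates 1 to 5, against 1131, 1381, 1285, 1147 and 1287 in control replicates 1 to 5. Of the PNA2 libraries 4 lay above every control, and the groups overlapped through PNA2 replicate 4. The means were 1498 ± 177 with PNA2 and 1246 ± 105 in controls (SD, n = 5 each). The log2 difference was 0.26 (SE 0.09, 95% interval 0.06 to 0.46), or 1.20 times the control level, with an adjusted p of 0.0599 in limma, which missed the threshold. The exact two-sided permutation p was 0.0159, unadjusted, where the smallest possible is 0.00794. The call changed with the tool and with single libraries, since the adjusted p was 0.0381 in DESeq2, 0.0254 in limma without PNA2 replicate 4 and 0.0494 in limma without control replicate 2. By limma on all libraries 0 of the 2 PIM genes tested at 72 h were called, beside 23.8% of all 11985 genes tested. An unadjusted limma p under 0.05 was found for 1 of the 2, and for 4535 of the 11985 genes.

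**Figure D3:**
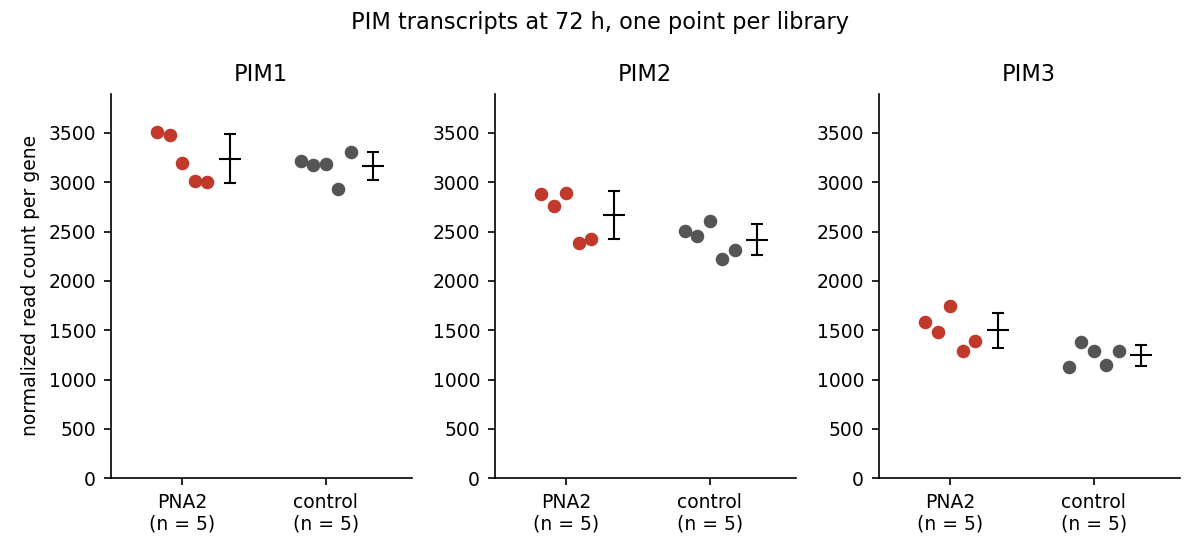
Deposited normalized read counts of PIM1, PIM2 and PIM3 at 72 h (vertical axis) in PNA2 and control libraries (horizontal axis), with each point a library and bars for the mean ± SD of 5 libraries. PIM3 reaches 1748 with PNA2 and 1381 in controls, and the groups overlap in all 3 genes.

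The make-up of the family differed between the groups at 48 h. Of the summed level per kb, PIM1 took 21.3% ± 2.84 in PNA2 (SD, n = 4), 24.8% ± 0.477 in siRNA (SD, n = 4) and 30.2% ± 3.54 in control libraries (SD, n = 6). PIM2 took 49.3% ± 5.10 in PNA2, 57.3% ± 0.987 in siRNA and 47.2% ± 4.44 in controls. PIM3 took 29.4% ± 6.58 in PNA2, 17.9% ± 0.824 in siRNA and 22.6% ± 1.69 in controls. The PIM1 share was below every control in both PNA2 and siRNA cells, in PNA2 with a low PIM1 level and in siRNA with a high PIM2 level. The choice of the genes used these levels, so nothing is read from that separation.

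The ratio of PIM1 to PIM2 was taken from values not divided by length, and it does not depend on the scaling of a library. Its mean log2 was the same in PNA2 and siRNA cells, at -1.10, and -0.54 in controls. The 4 PNA2 replicates had log2 ratios of -0.82, -1.26, -1.24 and -1.10, and the 4 siRNA replicates had -1.10, -1.16, -1.08 and -1.05. It ran from -0.76 to -0.13, with a median of -0.71, in the 6 controls. Every treated library lay below every control, with -0.82 in PNA2 replicate 1 beside -0.76 in the lowest control. The choice of PIM1 and PIM2 used these values, so nothing is read from that separation. The control mean was -0.34 in batch A and -0.74 in batch B. The PNA2 mean was -1.04 in batch A and -1.17 in batch B, and all siRNA libraries are in batch A. The sum of the 3 levels per kb was 2020 ± 102 in PNA2 (SD, n = 4), 2996 ± 68.6 in siRNA (SD, n = 4) and 2666 ± 273 in controls (SD, n = 6).

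At 72 h the shares of the groups were closer to each other. PIM1 took 40.9% ± 1.77 with PNA2 and 43.5% ± 1.18 in controls (SD, n = 5 each), PIM2 36.3% ± 0.473 with PNA2 and 35.8% ± 1.39 in controls, and PIM3 22.8% ± 1.38 with PNA2 and 20.7% ± 1.26 in controls. The log2 ratio of PIM1 to PIM2, not divided by length, was 0.29, 0.33, 0.14, 0.34 and 0.31 in PNA2 replicates 1 to 5. It was 0.36, 0.37, 0.29, 0.40 and 0.52 in control replicates 1 to 5. The groups overlapped, and PNA2 replicate 3 was the lowest.

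**Figure D4:**
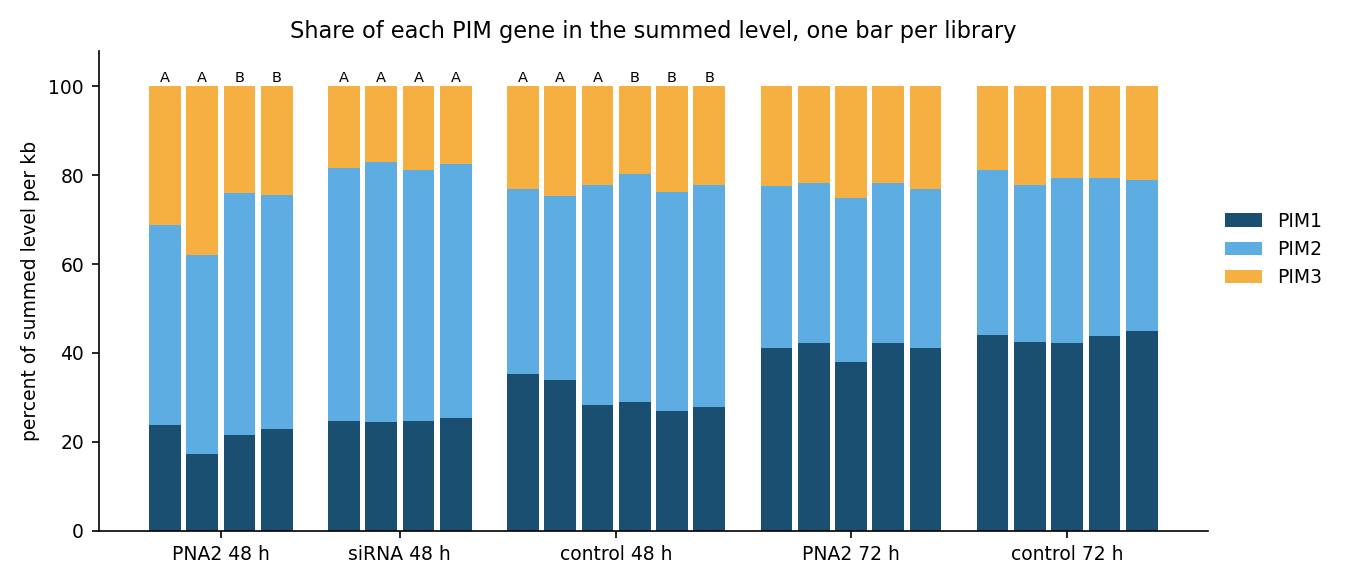
Share of PIM1, PIM2 and PIM3 in their summed level per kb (vertical axis, percent), with one stacked bar for each library and the groups side by side (horizontal axis). Letters above the 48 h bars give the batch. PIM2 takes the largest part of each bar at 48 h, with a mean of 57.3% in siRNA, and PIM1 the largest part at 72 h, with a mean of 40.9% in PNA2 and 43.5% in controls, an order that turns for PNA2 at 72 h when the longest transcript is used as length.

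The genes whose profiles over the libraries came closest to those of the PIM genes were ranked by the root mean square difference of centred log2 values. For PIM1 at 48 h (14 libraries, 9627 genes) these were IGLL5, at 0.132, KIAA0040, at 0.160, and KHDC1, at 0.165, where PIM1 itself varied by 0.494. IGLL5 encodes an immunoglobulin lambda-like polypeptide. For PIM2 they were OTUD7B, a deubiquitinase, at 0.113, the Golgi protease gene MBTPS1, at 0.125, and TXNDC11, at 0.128, where PIM2 varied by 0.415. For PIM3 they were IGSF8, ARF1 and TAFAZZIN, between 0.0680 and 0.0710, where PIM3 varied by 0.189. At 72 h (10 libraries, 9604 genes) the closest were MFN2, ESYT1 and PPIL2 for PIM1, SAMD1, PYGO2 and AAMP for PIM2, and SASH3, VPS18 and CNPPD1 for PIM3. No gene was among the closest 3 of a PIM gene at both times.

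Upstream of the PIM genes, 9 of 19 JAK-STAT genes tested rose and 0 fell in siRNA cells at 48 h, with a median log2 difference of 0.42 over the list and -0.01 over all genes, where PIM2 was 0.67 higher and PIM1 differed by -0.04. The background was 8.72% of genes higher and 8.52% lower. STAT3, a factor that activates PIM transcription, rose by 0.90 (SE 0.09, adjusted p = 8.14e-05), and the aligned difference, with each batch set against its own controls, was 0.77. Without a batch term 5 of the 19 rose, beside 468 of all 14136 genes. For IL10, a cytokine that signals through STAT3, the deposited values were 177.6 to 260.1 in siRNA cells, against -19.1 to 85.9 in batch A controls and 118.1 to 129.1 in batch B controls, and the aligned difference was 1.82. In PNA2 cells, where PIM1 was 0.90 lower, 1 of the 19 rose and 2 fell (median 0.01, and 4 fell without PNA2 replicate 1 or 2 and 1 without replicate 3), beside 8.11% of genes called higher and 8.04% lower. The gene that rose was STAT5A, a further factor that induces PIM1, by 0.97 (SE 0.21, adjusted p = 0.00665). Set against siRNA, where the differences of PIM1 and PIM2 were -0.86 and -1.0, PNA2 cells had 0 of 19 higher and 12 lower (median -0.66), beside 12.0% of all genes higher and 11.5% lower.

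Genes that share STAT control with PIM1 and PIM2 gave 6 higher and 1 lower of 11 tested in siRNA cells, with a median of 0.41. Of all genes 8.72% were called higher and 8.52% lower there. MCL1, a survival factor, rose by 0.69 and SOCS1, a feedback inhibitor of JAK kinases, by 1.91, and with the batches aligned these were 0.56 and 1.33. Without a batch term 2 of the 11 rose, beside 468 of all 14136 genes, and MCL1 and SOCS1 were not among the 2. In PNA2 cells 1 of 11 rose and 3 fell, with a median of -0.31, beside 8.11% of all genes called higher and 8.04% lower. The survival gene BCL2L1 fell by 0.61, with -0.94 within batch A and -0.28 within batch B.

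Of 21 NF-kB subunits and targets, 0 rose and 10 fell in PNA2 cells at 48 h, with a median of -0.42 beside 0.00 over all genes. Of all genes 8.11% were called higher and 8.04% lower. With a library left out, 7 to 13 of the list fell, beside 833 to 1540 of all 14136 genes. Without rescaling 2 rose and 5 fell, where 2014 of all genes were called higher and 167 lower. Within batch B 4 fell, where 422 of all genes were called lower. NFKBIZ, a nuclear regulator of NF-kB, fell by 0.87 (SE 0.12, adjusted p = 0.000432), BIRC3, an inhibitor of apoptosis, by 0.87 (SE 0.26, adjusted p = 0.0335), TNFAIP3, a feedback inhibitor, by 0.79 (SE 0.14, adjusted p = 0.00242), and ICAM1, an adhesion molecule, by 0.76 (SE 0.13, adjusted p = 0.00164). The value of BIRC3 was -0.22 within batch B and -0.40 without PNA2 replicate 2, and that of ICAM1 was -0.34 within batch B. In siRNA cells 6 of the 21 rose and 0 fell, with a median of 0.25, beside 8.72% of all genes called higher and 8.52% lower. The number that rose was 0 without a batch term, 3 without control replicate 1 or 2 or siRNA replicate 1, 2 or 3, and 10 without PNA2 replicate 2, which enters the shared fit. In the same order, 468, 642 to 827, and 2114 of all 14136 genes were called higher. Set against siRNA, PNA2 cells had 0 higher and 14 lower, with a median of -0.61, beside 12.0% of all genes higher and 11.5% lower.

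At 72 h, where the PIM1 values of the groups overlapped, the JAK-STAT list gave 1 gene higher and 2 lower of 18 tested with PNA2 (median -0.14), beside 12.1% of genes called higher and 11.7% lower. The STAT target list gave 4 higher and 1 lower of 11 (median 0.20, and 2 higher without control replicate 1 or 4) and the NF-kB list 1 higher and 4 lower of 21 (median -0.14). The single higher gene of the JAK-STAT list was lost without control replicate 3 or 5, and that of the NF-kB list in 8 of the 10 fits with a library left out. Among the 4 lower genes were NFKBIZ, by 0.57, IRF4, a factor of activated B cells, by 0.47, and TNFAIP3, by 0.34, which were called lower at 48 h as well.

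**Figure D5:**
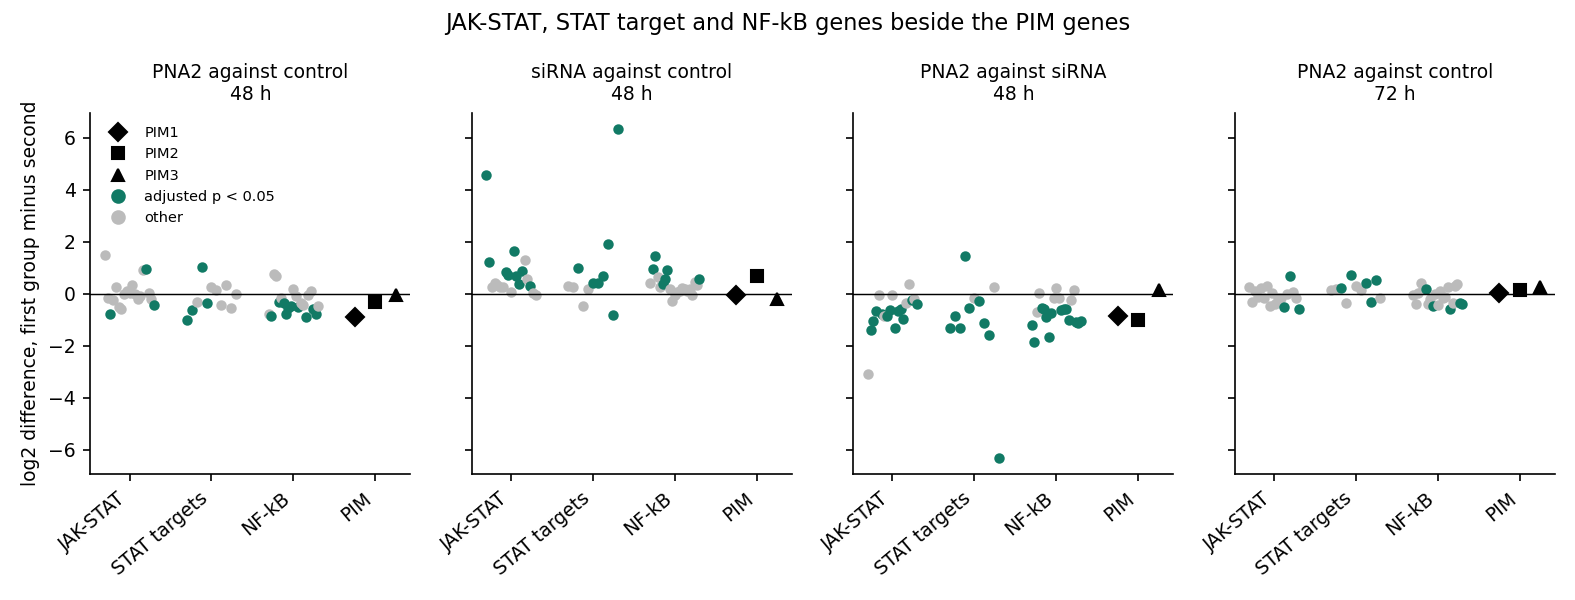
Log2 differences (vertical axis, the group named first minus the second) of the genes tested in the JAK-STAT, STAT target and NF-kB lists, and of PIM1 (diamond), PIM2 (square) and PIM3 (triangle), with a panel for each comparison. Green points passed an adjusted p of 0.05 and grey points did not, and the PIM genes are drawn in black with no call. In PNA2 against siRNA the medians of the lists are -0.66, -0.86 and -0.61.

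Downstream, of 24 genes for PIM substrates, 1 rose and 2 fell in PNA2 cells and 4 rose and 2 fell in siRNA cells at 48 h, and 4 rose and 1 fell with PNA2 at 72 h. Without PNA2 replicate 2, 4 rose in PNA2 cells and 7 rose and 7 fell in siRNA cells, and without control replicate 1 or 2, 1 fell in PNA2 cells. Of all 14136 genes, without PNA2 replicate 2, 1245 rose in PNA2 cells, and 2114 rose and 2202 fell in siRNA cells. FOXO3, a transcription factor that PIM kinases inhibit, rose by 0.51 in PNA2 cells (SE 0.10, adjusted p = 0.00426) and by 0.39 in siRNA cells (SE 0.11, adjusted p = 0.0271), and its difference between PNA2 and siRNA was 0.12 (adjusted p = 0.52). The 2 substrate genes that fell in PNA2 cells were CDC25A (-0.46) and AKT1S1 (-0.26). In siRNA cells SOCS1 (1.91), FOXO1 (0.59) and RUNX1 (0.43) rose as well, and MYC (-0.82) was among those that fell. BAD, the cell death factor that PIM kinases phosphorylate, rose by 0.72 with PNA2 at 72 h (SE 0.15, adjusted p = 0.00678). There CXCR4 (0.34), SOCS1 (0.53) and NFATC1 (0.35) rose too, and CBX3 fell (-0.47). The substrate calls in these comparisons numbered 3, 6 and 5 of 24, beside 16.2%, 17.2% and 23.8% of all genes. Chaperones and phosphatase subunits that act on PIM proteins gave 0 higher and 3 lower of 8 tested in both PNA2 and siRNA cells at 48 h, comparisons that share the controls, and 1 higher and 0 lower of 10 at 72 h. In PNA2 cells 1 fell when PNA2 replicate 3, control replicate 1 or 2 or an unnumbered control was left out. HSP90AB1, a chaperone that keeps PIM proteins from degradation, fell by 0.39 in PNA2 and by 0.48 in siRNA cells, and both calls were lost without rescaling or without control replicate 2. The AKT and mTOR kinases, which share substrates with the PIM kinases, gave 2 higher and 1 lower of 18 in PNA2 cells, 2 higher and 1 lower in siRNA cells, and 2 higher and 2 lower with PNA2 at 72 h. With a library left out, the number lower ran from 0 to 4 in siRNA cells, highest without PNA2 replicate 2, and from 0 to 5 at 72 h, highest without PNA2 replicate 4, and the number higher in PNA2 cells at 48 h was 4 without replicate 1. Without those libraries, in that order, 2202 of 14136, 1652 of 11985 and 1484 of 14136 genes were called in the same direction.

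Other targets of aberrant hypermutation, the class to which PIM1 belongs in this lymphoma, gave 3 genes higher and 6 lower of 22 in PNA2 cells and 8 higher and 1 lower in siRNA cells at 48 h, and 7 higher and 2 lower with PNA2 at 72 h. Of all genes 8.11% were called higher and 8.04% lower in PNA2 and 8.72% and 8.52% in siRNA cells at 48 h, and 12.1% and 11.7% with PNA2 at 72 h. The number higher in PNA2 cells was 7 without PNA2 replicate 2 and 1 without PNA2 replicate 4, beside 1245 and 814 of all 14136 genes. In siRNA cells it was 5 without control replicate 1 or 2 or siRNA replicate 1, 2 or 3, beside 642 to 827 of all genes. There 3 genes were lower without PNA2 replicate 2, beside 2202 of all genes. TMSB4X, which encodes an actin-binding peptide, was higher with PNA2 by 0.68 at 48 h and by 0.63 at 72 h. Of the 8 B-lineage markers, 2 rose and 1 fell in PNA2 cells and 5 rose and 0 fell in siRNA cells at 48 h, and 3 rose and 1 fell with PNA2 at 72 h, beside 16.2%, 17.2% and 23.8% of all genes called in either direction. Their summed value was 61020 to 100700 in PNA2, 78470 to 98070 in siRNA and 56410 to 73760 in control libraries at 48 h, before rescaling. Their part in the PIM differences was not tested.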

How the data were processed

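RNA was sequenced from U2932 cells, in 14 libraries at 48 h and 10 at 72 h, after extraction and stranded library preparation, per the labels. Per the submitters' processing notes, Trimmomatic, SAMtools 1.7, HISAT2 2.2.1, DESeq2 and HTSeq 0.11.0 were run on GRCh38, and whether strand was used in counting is not given in the sources used here. The deposited 48 h table holds read counts that the authors adjusted per gene and batch, without division by depth, and values below 0 occur in 5099 of its genes. The deposited 72 h table holds normalized signal, read counts that the authors divided by a size factor per library, and whole reads were recovered in 100% of its values within 0.01. The 2 batches at 48 h were inferred from equal values of low genes: over 6269 of these, libraries of a batch had ties in 21.7% to 38.5% and libraries of different batches in 0%. The 48 h table has 2 controls under one header, and these are called unnumbered.

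At 48 h, values below 0 became 0 and were scaled by TMM (edgeR 4.0.16). A pseudocount of 1 was added before taking log2. The size of a difference of low genes could depend strongly on the processing. SOCS3 had deposited values of -23.6 to 9.75 in batch A controls. Its log2 difference in siRNA against control was 6.32, and 2.41 with the batches aligned on their controls. limma 3.58.1, with its trend option in R 4.3.3, used group and batch as terms over all 14 libraries. For 72 h the only term was group, and the unscaled deposited values were used with that pseudocount. Tested genes reached 10 in 4 or more libraries (48 h) or in 5 or more (72 h), with two-sided tests, Benjamini-Hochberg adjustment over all genes tested and a threshold of 0.05. All 3 PIM genes passed this filter in every library. Exact two-sided permutation tests compared mean log2 values of single genes, with no batch term and no adjustment. Levels per kb used the exon union of GENCODE 29. The models were tested on simulated data. Members and lists were chosen with earlier results of these data known. Genes named beside the PIM genes are called genes of a list whose mean reached 100 in some group, at most 4 for a list and comparison by size of change, or all where 5 or fewer are called, and the text gives a part of them. FOXO3, named for PNA2 cells, is also given for siRNA cells and for PNA2 against siRNA, outside this rule. Alternatives were no batch term, no rescaling, both, quantile normalization, a pseudocount of 5, no filter, fewer groups, single batches, batches aligned on their controls, a replicate block, each library left out and, at 72 h, TMM, edgeR and DESeq2 1.42.0 on the recovered reads.

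Replicate numbers were not used as pairs in the main fits. The correlation of deviations between libraries of one number ran from -0.4 to 0.203. Libraries of different numbers were not correlated for comparison, so pairing is not excluded. With the replicate block at 72 h the adjusted p in limma was 0.113 for PIM2 and 0.0584 for PIM3. Promoters came from RefSeq (GRCh38.p14), and all 3 PIM genes matched by symbol.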

Additional observations from a re-analysis of the deposited data

Results flagged for a closer look

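In 3 of the 20 groups of values examined, a library stood farther from its group than Dixon's criterion allows, and chance alone gives this in about 1 group of 20. PIM1 in PNA2 replicate 2 at 48 h had a TMM-scaled value of 1017, with a gap to the nearest of the others of 0.937 of the range of the group. PIM1 in control replicate 4 at 48 h had 2093, with a gap of 0.731 of the range. The log2 ratio of PIM1 to PIM2 in PNA2 replicate 3 at 72 h was 0.143, with a gap of 0.738 of the range.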

How the results depend on the processing

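At 48 h the libraries differ in total, and leaving out the rescaling shifted the median of all genes by 0.19 (PNA2 against control) and 0.22 (siRNA against control) on the log2 scale and turned the split of called genes to 2014 higher and 167 lower (PNA2) and 2124 higher and 74 lower (siRNA), against 1147 and 1137, and 1233 and 1204. Without it, the difference in PNA2 against control was -0.70 for PIM1, -0.13 for PIM2 and 0.16 for PIM3, with or without a batch term. In siRNA against control it was 0.19 for PIM1, 0.90 for PIM2 and 0.048 for PIM3 with the batch term, and 0.11 for PIM1 and 0.053 for PIM3 without it. The batch term alone, when dropped, gave PIM2 0.46 in siRNA against control and -0.79 in PNA2 against siRNA (-0.80 also without rescaling). PIM3 in PNA2 against control was 0.25 within batch A and -0.33 within batch B, and -0.041 in PNA2 against siRNA with the batches aligned. Leaving out a library gave PIM1 -0.084 to 0.0026 in siRNA against control and -0.94 to -0.72 in PNA2 against siRNA, and PIM3 0.20 to 0.31 at 72 h, where DESeq2 gave 0.27. Genes called numbered 2284 in PNA2 against control, with 978 in a fit of those groups alone, 839 within batch B and 737 with the replicate block. In siRNA against control there were 2437, with 4644 in a fit of those groups alone, 1184 without a batch term, 1395 without batch term and rescaling, 955 with the replicate block and 1190 to 4316 when a library was left out. In PNA2 against siRNA there were 3325, with 1785 without rescaling, 1195 without both and 1730 with the replicate block. At 72 h there were 2849, with 2837 in edgeR, 3319 in DESeq2 and 2769 with the replicate block. The block changed no PIM call. MYC at 72 h ran from -0.43 to 0.24 when a library was left out, and was above 0 without control replicate 4 (0.015) or PNA2 replicate 3. With the longest transcript as length, PIM1 took 22.7% in siRNA at 48 h, 39.0% with PNA2 and 41.4% in controls at 72 h. PIM2 took 54.6% in PNA2, 62.1% in siRNA and 52.2% in controls at 48 h, and 40.9% with PNA2 and 40.4% in controls at 72 h. PIM3 took 15.2% in siRNA and 19.6% in controls at 48 h, and 20.1% with PNA2 and 18.2% in controls at 72 h. The cause of these shifts was not tested.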
